A study of Mus musculus with 24 samples.

Results

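Csf1 and Il34 encode the ligands of the CSF1 receptor, and their RNA levels were measured here in MC38 cells, a mouse colon carcinoma line. The pair was chosen by name, as the ligands of that receptor, and makes up 2 of the 15390 genes in the deposited table and 2 of the 13272 genes that passed a filter on low values. Earlier results of these data were known when the pair was chosen, among them the TNF response of Csf1. Differences between TNF-treated and untreated libraries are therefore given for both genes as a description, with no test. It is not recorded which genotype results were in view, so adjusted p-values for genotype state where the genes stood among all genes tested.

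The cells carried Ado gRNA 1 or Ado gRNA 2 (genotype Ado KO), or Control gRNA 1 or Control gRNA 2 (genotype control), which makes 4 guide populations. The enzyme made from Ado is a thiol dioxygenase, which oxidises cysteamine and cysteines at the start of certain proteins. Cells of each population received the cytokine TNF for 1 h or 6 h or none, with 2 libraries for each case, which gives 6 groups of 4 libraries. All cells grew in DMEM with fetal calf serum. The labels do not say whether a population was a clone or a pool, whether libraries came from separate cultures, what dose of TNF was used, or when untreated cells were harvested. P-values therefore measure the spread between libraries, which may be technical, and an effect of TNF cannot be told apart from one of time in culture.

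The receptor for both proteins is a tyrosine kinase of monocytes, macrophages and their precursors, which need its signal to survive, divide and mature. CSF1, also called M-CSF, is the main growth factor of circulating monocytes and of most tissue macrophages, and it is made as a membrane-anchored precursor that proteases can cut free. IL-34 is unrelated to CSF1 in sequence, binds the same receptor, and is best known for maintaining microglia in the brain and Langerhans cells in the skin. Tumour cells that make CSF1 can draw in and sustain macrophages. In other cell types, TNF is known to raise CSF1 transcription through NF-kB, a family of transcription factors that inflammatory signals activate.

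In GENCODE M21 on build GRCm38, Csf1 lies on the minus strand of chromosome 3, from 107741048 to 107760469, with 7 annotated transcripts of which 6 are coding, and no other gene overlaps it. Il34 lies on the minus strand of chromosome 8, from 110741829 to 110805924, with 5 transcripts of which 2 are coding. The antisense genes Gm15894 and Gm15895 overlap Il34, and the nearer to its 3′ end starts 13163 bases away. Neither was analysed here, and whether the counting used strand is not given in the sources used here. The assay counts 1 tag near the 3′ end of a transcript, so membrane-bound and secreted forms of Csf1 that share a 3′ end cannot be told apart.

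The 250 bases before the annotated start of Csf1 (RefSeq, GRCm38.p6, chr3:107760470-107760719, minus strand) are printed because they hold a match to the consensus of NF-kB, the factor that TNF activates. Capitals mark that match and a pair of GC boxes.
Csf1: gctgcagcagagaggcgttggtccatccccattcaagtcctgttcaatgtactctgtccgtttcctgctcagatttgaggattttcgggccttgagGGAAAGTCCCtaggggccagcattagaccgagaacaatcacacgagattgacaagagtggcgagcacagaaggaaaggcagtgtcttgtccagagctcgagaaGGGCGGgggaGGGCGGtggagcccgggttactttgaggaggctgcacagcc
The NF-kB match reads GGGACTTTCC on the opposite strand and spans positions -154 to -145 from the start site. Of 32851 mouse promoters in windows of 300 bases, searched on both strands, 8.46% held such a match. The GC boxes, GGGCGG, stand at -51 to -46 and at -41 to -36, do not overlap the NF-kB match, and occurred in 35.7% of promoters. The AP-1 motif TGANTCA (7.81% of promoters), the cAMP response element TGACGTCA (1.79%) and the TATA box TATAAA (13.6%) had no match in the window of Csf1. A match is a run of letters, not a measured binding site. A promoter entry was found for 1 of the 2 genes, and the promoter of Il34 was not analysed here.

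Values are log2 CPM, tag counts scaled to a common total on a log2 scale, and libraries are named by guide and replicate, so that 2-1 is replicate 1 of guide 2. The depth was not stated and was estimated from low values at 4260000 to 6630000 tags per library. This corresponds to about 346 to 2330 tags of Csf1 and 204 to 412 tags of Il34, with a counting error of 0.03 to 0.078 for Csf1 and 0.071 to 0.1 for Il34 on the log2 scale. Ado itself read 5.00 to 5.53 in the 12 Ado KO libraries and 5.01 to 5.37 in the 12 control libraries. A 3′ tag outside the edited part of a gene checks nothing about a knockout, so the genotype is taken from the labels. Of 8 epithelial marker genes 3 were in the table, with a summed level of 0.294 to 3.37 CPM across the 24 libraries. Krt18 stood at the lowest value of the table in 14 of 24 libraries, Cdh1 in 5 and Krt8 in 2, and the medians of Cdh1 and Krt8 were -0.98 and -0.57 log2 CPM. Of 16 macrophage and monocyte markers 7 were in the table, and their summed level ranged from 11.1 to 28.3 CPM across the 12 Ado KO libraries and from 13.1 to 21.3 CPM across the 12 control libraries. Of 7 fibroblast markers 5 were in the table, with summed levels of 75.4 to 99.9 CPM in Ado KO and 56.7 to 97.8 CPM in control libraries without treatment, and of 59.8 to 68.9 CPM in Ado KO and 41.4 to 70.3 CPM in control libraries at 6 h. Of 7 T and NK cell markers 5 were in the table, with summed levels of 5.59 to 54.8 CPM in Ado KO and 1.54 to 16.8 CPM in control libraries without treatment, of 4.19 to 22.2 CPM in Ado KO and 5.05 to 11.9 CPM in control libraries at 1 h, and of 9.11 to 19.4 CPM in Ado KO and 5.28 to 40.0 CPM in control libraries at 6 h. Among them Gzmb reached 5.17, Nkg7 3.69 and Cd8a 2.30 log2 CPM, while Cd3e and Cd3g stayed at or below 0.02. The part of such cells in the results was not tested. In bulk RNA, fewer cells of a type and less RNA per cell cannot be told apart.

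Csf1 was higher in every TNF 6 h library than in every untreated library of either genotype, by about 4-fold, and Il34 was lower in Ado KO than in control libraries at every time. Untreated Ado KO libraries 1-1, 1-2, 2-1 and 2-2 had 6.78, 6.47, 6.38 and 6.41 log2 CPM of Csf1, and untreated control libraries had 6.22, 6.27, 6.56 and 6.64. These values overlapped, with means of 6.51 ± 0.18 in Ado KO and 6.42 ± 0.21 in control cells (SD, n = 4 each), near 91.2 CPM in Ado KO and 85.8 CPM in control cells.

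After 1 h of TNF the Ado KO libraries had 7.25, 6.47, 7.13 and 7.23 log2 CPM of Csf1, and the control libraries had 7.30, 7.26, 7.12 and 7.14. The means were 7.02 ± 0.37 in Ado KO and 7.21 ± 0.09 in control cells (SD, n = 4 each). Ado KO library 1-2 stood at the untreated level, while the other 7 libraries lay above all untreated libraries. The difference from untreated was 0.51 on the log2 scale (SE 0.121) or 1.43-fold in Ado KO cells, where the groups overlapped through library 1-2, and 0.78 (SE 0.121) or 1.72-fold in control cells, where they did not. Without library 1-2 the Ado KO difference was 0.70. As background, 0.241% of all genes were called higher and 0.0151% lower at 1 h in Ado KO cells, and 0.332% higher and 0.0603% lower in control cells, by limma with Benjamini-Hochberg adjusted p under 0.05.

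Library 1-2 of Ado KO cells at 1 h was the lowest of its group in 5 of 7 other known TNF targets. Ccl2, a monocyte chemokine, had 5.76 log2 CPM there and 7.60 to 8.62 in the other 3 libraries of its group, while untreated Ado KO libraries had 5.65 to 6.06. Tnfaip3, a ubiquitin-editing inhibitor of NF-kB, had 1.90 there and 2.69 to 3.39 in the other 3. Nfkbia, the NF-kB inhibitor IkB-alpha, had 10.53 there and 10.63 to 10.71 in the others, and the neutrophil chemokine Cxcl1 had 6.28 there and 6.63 to 7.29 in the others. Junb, an AP-1 subunit, had 7.05 there and 7.43 to 7.63 in the others. Zfp36, which encodes an RNA-binding protein that destabilises cytokine mRNAs, had 4.12 there and 4.11 to 4.83 in the others, and Vcam1, an adhesion molecule for leukocytes, had 5.69 there and 5.46 to 5.82 in the others. The 7 genes were chosen after their own values and that of Csf1 in this library were seen, so the count of 5 is no test. How many of all genes were lowest in this library was not counted. Untreated Ado KO libraries had 7.46 to 7.63 of Nfkbia, 1.94 to 2.05 of Cxcl1 and -1.70 to -0.33 of Tnfaip3. They had 5.02 to 5.37 of Junb, 1.51 to 2.06 of Zfp36 and 4.67 to 4.85 of Vcam1. In each of these genes, unlike in Ccl2, library 1-2 at 1 h lay above the untreated range. Whether the library differed in treatment was not tested.

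After 6 h of TNF the Ado KO libraries had 8.57, 8.63, 8.54 and 8.65 log2 CPM of Csf1, and the control libraries had 8.13, 8.35, 8.48 and 8.49. The means were 8.60 ± 0.06 in Ado KO and 8.36 ± 0.17 in control cells (SD, n = 4 each), near 387.6 CPM in Ado KO and 329.4 CPM in control cells. All 8 values lay above all values at 1 h and in untreated cells. For TNF at 1 h or 6 h, the share of all genes without overlap was not counted. The difference from untreated was 2.09 (SE 0.121) or 4.25-fold in Ado KO cells and 1.94 (SE 0.121) or 3.84-fold in control cells. By size, these were the 120th and 296th highest of 13272 differences, in a comparison where 4.42% of genes were called higher and 2.02% lower in Ado KO cells and 7.74% higher and 10.3% lower in control cells. The 1 h and 6 h comparisons of a genotype share its untreated libraries.

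**Figure D1:**
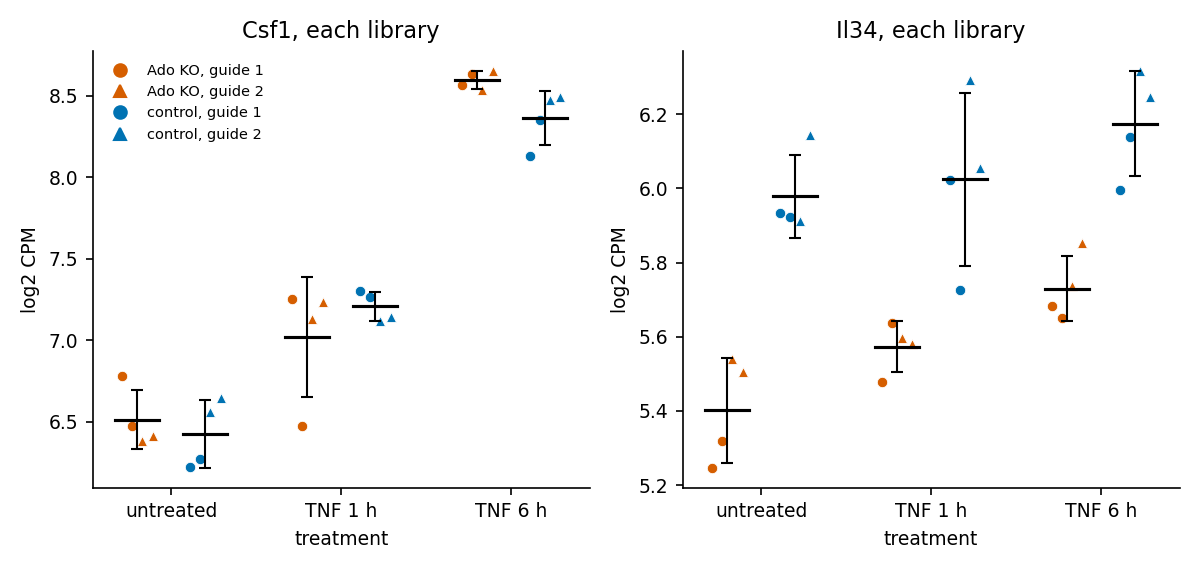
Level of Csf1 (left) and Il34 (right) in each of the 24 libraries, in log2 CPM, by treatment, with Ado KO in orange left of control in blue and guides 1 and 2 as circles and triangles. Bars give the mean and SD of 4 libraries; the axes differ and do not start at 0. Csf1 stands at 8.13 to 8.65 in all TNF 6 h libraries, and Il34 is lower in Ado KO than in control libraries at each time without overlap.

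Il34 showed smaller TNF differences. Untreated Ado KO libraries 1-1, 1-2, 2-1 and 2-2 had 5.25, 5.32, 5.54 and 5.50 log2 CPM, and untreated control libraries had 5.93, 5.92, 5.91 and 6.14. At 1 h the Ado KO libraries had 5.48, 5.64, 5.60 and 5.58, and the control libraries had 6.02, 5.73, 6.29 and 6.06. At 6 h the Ado KO libraries had 5.68, 5.65, 5.74 and 5.85, and the control libraries had 5.99, 6.14, 6.32 and 6.25. All 12 Ado KO libraries lay between 5.25 and 5.85 and all 12 control libraries between 5.73 and 6.32.

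Against untreated cells, Il34 at 1 h differed by 0.17 in Ado KO and 0.05 in control cells (SE 0.0974 each), and at 6 h by 0.33 in Ado KO and 0.20 in control cells (SE 0.0974 each). In Ado KO cells all TNF 6 h libraries lay above all untreated ones, with a difference of 1.26-fold. How many of all genes were without overlap was not counted, so this is a description. The other 3 pairs of groups overlapped. Set beside Csf1, the 6 h difference was 2.09 for Csf1 and 0.33 for Il34 in Ado KO cells, and 1.94 for Csf1 and 0.20 for Il34 in control cells.

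By genotype, Il34 fell in Ado KO cells at all 3 times in the fit across all genes. In untreated cells it averaged 5.40 ± 0.14 log2 CPM in Ado KO and 5.98 ± 0.11 in control cells (SD, n = 4 each), near 42.3 CPM in Ado KO and 63.0 CPM in control cells. The difference was -0.58 (SE 0.102, 95% interval -0.785 to -0.368), a level of 0.671 times that of control, with a limma adjusted p of 0.00585 in a comparison that called 0.249% of genes. At 1 h the means were 5.57 ± 0.07 in Ado KO and 6.02 ± 0.23 in control cells, with a difference of -0.45 (SE 0.102) and a limma adjusted p of 0.0242, where 1.06% of genes were called. At 6 h they were 5.73 ± 0.09 in Ado KO and 6.17 ± 0.14 in control cells, with a difference of -0.44 (SE 0.102) and a limma adjusted p of 0.0244, where 1.02% of genes were called. The groups did not overlap at any time, with gaps of 0.37 in untreated cells, 0.09 at 1 h and 0.14 at 6 h. The share of all genes without overlap was not counted, so the lack of overlap is a description. In size, the untreated difference was the 523rd lowest of 13272.

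The calls at 1 h and 6 h were lost when single libraries were left out, while the difference stayed between -0.545 and -0.366 at 1 h and between -0.499 and -0.403 at 6 h. At 1 h the adjusted p was 0.0619 to 0.0764 without Ado KO library 1-1 or 2-1 or without control library 1-1 or 2-1. At 6 h it was 0.0571 to 0.0788 without any 1 of Ado KO libraries 1-1, 1-2 and 2-1 or control libraries 1-2, 2-1 and 2-2. The untreated call was kept without each of the 8 libraries in turn, at adjusted p up to 0.0362, but not without Ado guide 1 (-0.46, adjusted p = 0.204) or Ado guide 2 (-0.70, adjusted p = 0.053).

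The unit of the comparison also matters, since libraries of 1 guide population resembled each other in Il34. The correlation within a population was 0.54 for Il34, -0.03 for Csf1 and 0.0485 over all genes. With the correlation of Il34 itself, an alternative chosen after seeing the data, its SE was 0.152. Its unadjusted limma p-values were then 0.000677 in untreated cells, 0.00593 at 1 h and 0.00657 at 6 h, and no adjusted p passed. That adjustment used fits of all genes with the correlation of Il34 in place of 0.0485, so it cannot decide for Il34 alone. With the 4 population means as the unit, an exact two-sided permutation test of 2 Ado KO against 2 control populations gave p = 0.333 at each time, the smallest that this design allows. Both Ado KO population means were below both control population means at all 3 times. They were 5.28 and 5.52 for Ado guides 1 and 2 against 5.93 and 6.03 for control guides 1 and 2 in untreated cells, 5.56 and 5.59 against 5.87 and 6.17 at 1 h, and 5.67 and 5.79 against 6.07 and 6.28 at 6 h.

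Csf1 did not pass the test for genotype at any time. Ado KO minus control was 0.09 in untreated cells (95% interval -0.17 to 0.35, limma adjusted p = 0.914). It was -0.18 at 1 h (-0.44 to 0.07, limma adjusted p = 0.509) and 0.23 at 6 h (-0.02 to 0.49, limma adjusted p = 0.511). At 6 h the 4 Ado KO libraries all lay above the 4 control libraries, by a gap of 0.04. How many of all genes were without overlap was not counted. Over the 3 times the intervals reach from -0.44 to 0.49 on the log2 scale. At 1 h the difference was 0.0018 without Ado KO library 1-2.

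Whether the TNF difference itself depended on genotype was tested by the interaction, which shares the untreated libraries between times. For Csf1 it was -0.27 at 1 h (SE 0.171, limma adjusted p = 0.576) and 0.15 at 6 h (SE 0.171, limma adjusted p = 0.914). For Il34 it was 0.13 at 1 h (SE 0.138, limma adjusted p = 0.772) and 0.13 at 6 h (SE 0.138, limma adjusted p = 0.904). With 1 library left out, Csf1 ranged from -0.352 to -0.0858 at 1 h, with -0.0858 without Ado KO TNF 1 h library 1-2, and from 0.0738 to 0.240 at 6 h, and Il34 ranged from 0.0312 to 0.210 at 1 h and from 0.0776 to 0.174 at 6 h. At 1 h, 0 genes (0%) were called by limma, while 628 were higher and 676 lower at an unadjusted p under 0.05, and 38 were called without Ado KO TNF 1 h library 2-2 and 7 without control guide 2. At 6 h 46 genes (0.347%) were called, against 0 with protein-coding genes normalised again, 1 without Ado guide 2 and 7 without control guide 1. Of single libraries, control TNF 6 h library 1-1 (27 called) and untreated Ado KO library 2-1 (28 called) moved that count most.

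**Figure D2:**
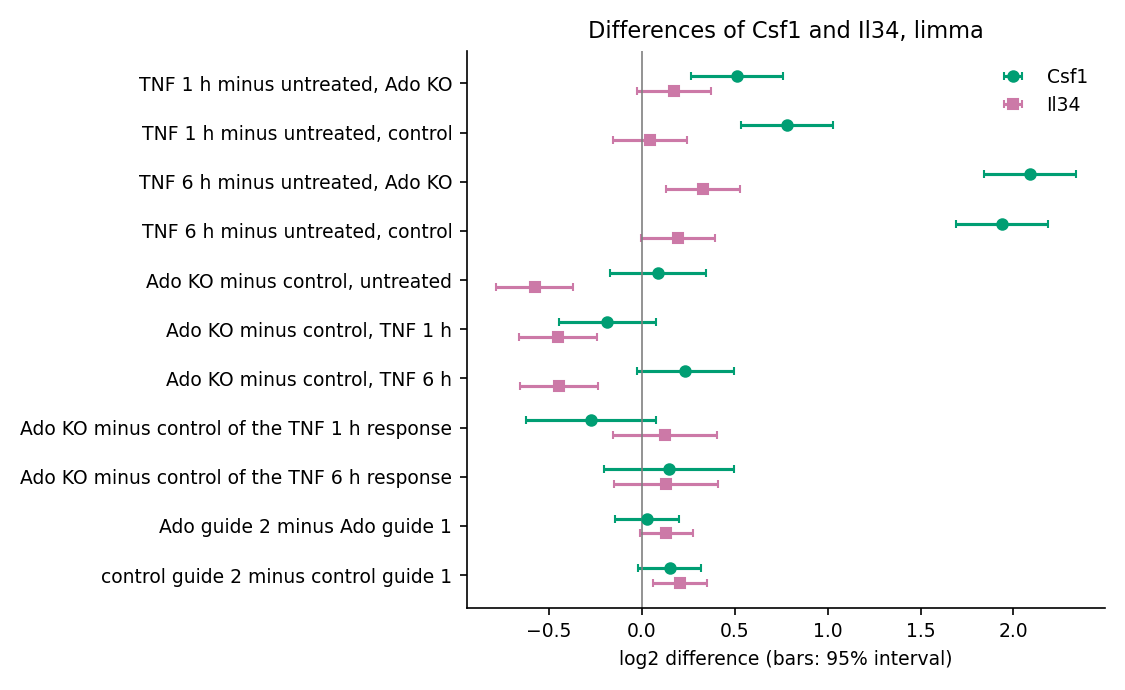
Differences of Csf1 (circles) and Il34 (squares) in log2 units with 95% intervals from limma, for TNF against untreated, Ado KO against control, the interaction of both, and guide 2 against guide 1. The Csf1 difference at 6 h is 2.09 in Ado KO and 1.94 in control cells, and the Il34 intervals lie below 0 in the 3 genotype comparisons. Intervals of the TNF differences are a description and not a test.

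The guide populations showed how much 2 lines of 1 genotype can differ. Averaged over the 3 treatments, Ado guide 2 minus Ado guide 1 was 0.03 for Csf1 (limma adjusted p = 0.951) and 0.13 for Il34 (limma adjusted p = 0.608), where 0.158% of genes were called. Control guide 2 minus control guide 1 was 0.15 for Csf1 (limma adjusted p = 0.338) and 0.20 for Il34 (95% interval 0.06 to 0.35, limma adjusted p = 0.0929), where 4.61% of genes were called. The Il34 difference between the control guides passed at adjusted p = 0.0171 when control TNF 1 h library 1-1 was left out.

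The 1 h difference of Csf1 from untreated cells varied between populations. It was 0.24 in Ado guide 1, which holds the low library 1-2, and 0.79 in Ado guide 2, and it was 1.03 in control guide 1 and 0.53 in control guide 2. At 6 h the populations were closer together, at 1.98 and 2.20 in Ado guides 1 and 2 and at 2.00 and 1.89 in control guides 1 and 2. Each of these values rests on 2 libraries per population and treatment.

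**Figure D3:**
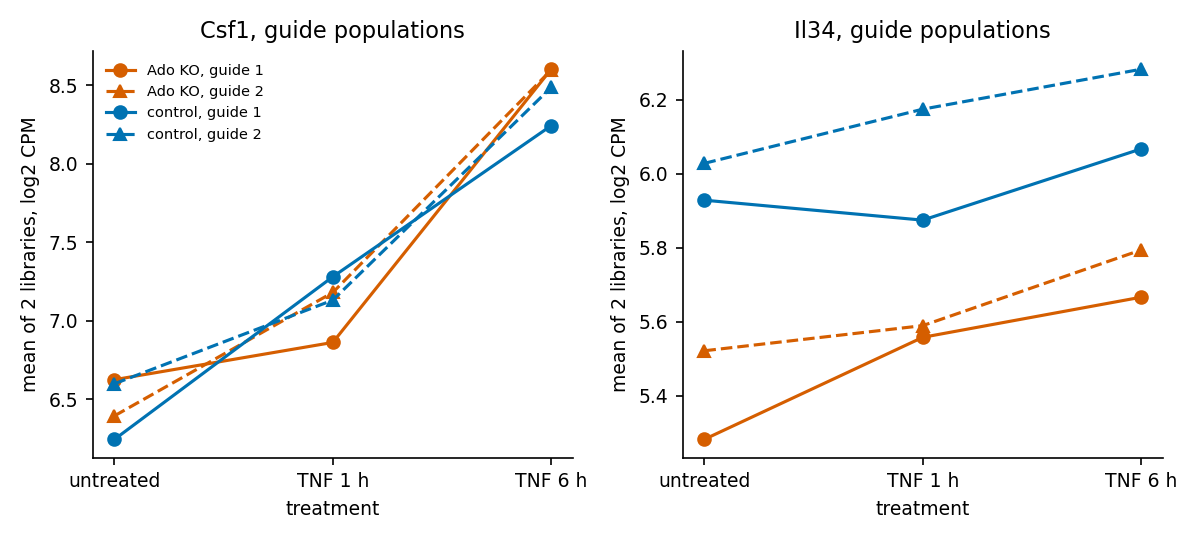
Mean level of Csf1 (left) and Il34 (right) in the 4 guide populations, in log2 CPM, over untreated, TNF 1 h and TNF 6 h; each point is the mean of 2 libraries and the axes do not start at 0. Csf1 lines lie at 8.24 to 8.60 at 6 h and at 6.25 to 6.63 in untreated cells, while both Ado KO lines of Il34 run below both control lines.

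The difference between the genes within a library, Csf1 minus Il34, changes only if they change unequally. A 3′ tag count does not scale with transcript length, but capture can differ between genes, so the difference is compared between groups and not read as a ratio of molecules. In untreated cells the Ado KO libraries had differences of 1.53, 1.16, 0.84 and 0.91, and the control libraries had 0.29, 0.35, 0.64 and 0.50. The mean was 1.11 ± 0.31 in Ado KO and 0.445 ± 0.16 in control cells (SD, n = 4 each), and the groups did not overlap. By gene, Ado KO minus control was -0.58 for Il34 and 0.09 for Csf1 in untreated cells, so this separation largely repeats that of Il34. How many pairs of genes were without overlap was not counted.

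At 1 h of TNF the Ado KO libraries had 1.77, 0.84, 1.53 and 1.65 and the control libraries 1.28, 1.54, 0.83 and 1.09, which overlapped. At 6 h the Ado KO libraries had 2.88, 2.98, 2.80 and 2.80 and the control libraries 2.14, 2.21, 2.16 and 2.25. The 6 h means were 2.87 ± 0.09 in Ado KO and 2.19 ± 0.05 in control cells (SD, n = 4 each), a tag ratio of 7.30 and 4.56. The genotypes differed by 0.68 at 6 h, by 0.66 in untreated cells and by 0.27 at 1 h. The 1 h value was 0.470 without Ado KO library 1-2, 0.158 without Ado KO library 1-1 and 0.148 without control library 2-1, and 0.042 to 0.49 without 1 guide population. The untreated value was 0.429 without Ado guide 1. No test is given, since the pair was chosen with results of these data known.

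**Figure D4:**
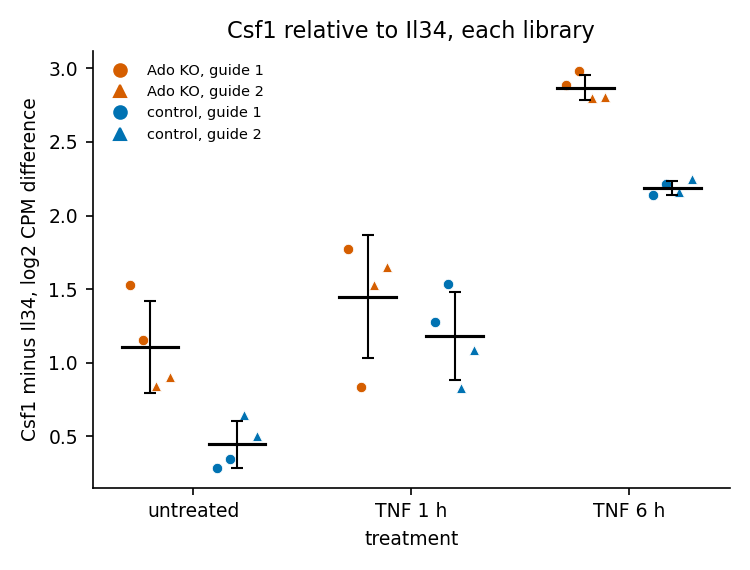
Csf1 minus Il34 in each library, in log2 units, by treatment, with Ado KO in orange left of control in blue, guides as circles and triangles, and bars for mean and SD of 4 libraries. At 6 h the Ado KO libraries stand at 2.80 to 2.98 and the control libraries at 2.14 to 2.25.

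Ordered by mean, Csf1 was highest in Ado KO at 6 h (8.60), then control at 6 h (8.36), control at 1 h (7.21), Ado KO at 1 h (7.02), untreated Ado KO (6.51) and untreated control (6.42). Neighbours in this order overlapped in their libraries at 1 h, in untreated cells, and, through library 1-2, between Ado KO at 1 h and untreated Ado KO. Il34 was highest in control at 6 h (6.17), then control at 1 h (6.02), untreated control (5.98), Ado KO at 6 h (5.73), Ado KO at 1 h (5.57) and untreated Ado KO (5.40). Neighbours did not overlap between untreated control and Ado KO at 6 h or between Ado KO at 6 h and at 1 h, and overlapped in the other 3 steps.

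The genes around the ligands were taken from 5 lists of 46 genes, drawn up with earlier results of these data known. They hold ligands of related receptors, receptors, genes that free CSF1 from the membrane, other myeloid growth factors and chemokines, and signalling genes downstream of the receptor. Of the 46, 36 were in the table and 34 were tested. At 6 h, 6 were called higher and 1 lower in Ado KO cells, where 4.42% of all genes were called higher and 2.02% lower, and 5 were called higher and 3 lower in control cells, where 7.74% were called higher and 10.3% lower. The list median was 0.10 in Ado KO and 0.07 in control cells, against -0.05 and -0.09 over all genes. At 1 h, 1 gene was called higher in each genotype, where 0.241% of all genes were called higher in Ado KO and 0.332% in control cells. Since results were known when the lists were made, adjusted p-values of list genes state where they stood among all genes tested. They are not independent support.

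Of the receptors, CSF1R and the IL-34 receptor PTPRZ1 were not analysed here. Sdc1 encodes syndecan-1, a surface proteoglycan that binds IL-34, and averaged 6.17 ± 0.10 log2 CPM in untreated Ado KO and 6.02 ± 0.13 in untreated control cells (SD, n = 4 each). It was not called in any comparison.

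Among ligands of related receptors, 3 of 6 were tested. Kitl, the ligand of the KIT receptor, fell at 6 h by 1.11 in Ado KO (limma adjusted p = 9.08e-06) and by 0.76 in control cells (limma adjusted p = 0.00112). It averaged 3.34 ± 0.36 log2 CPM at 6 h and 4.45 ± 0.20 untreated in Ado KO cells, and 3.94 ± 0.08 at 6 h and 4.70 ± 0.11 untreated in control cells. Pdgfa, a platelet-derived growth factor chain, rose at 6 h by 0.90 in Ado KO (limma adjusted p = 4.71e-08) and by 0.94 in control cells (limma adjusted p = 1.12e-08). Pdgfc had differences of 0.38 and -1.19 (SE 0.633 each) in Ado KO and control cells and was not called.

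CSF1 is cut from the membrane by the protease ADAM17, which iRhom proteins (Rhbdf1, Rhbdf2) bring to the surface and TIMP3 inhibits. None of the 5 shedding genes (Adam17, Adam10, Rhbdf1, Rhbdf2 and Timp3) was called in any of the 11 comparisons. At an unadjusted p under 0.05, Rhbdf1 was higher at 6 h in Ado KO cells (0.42), where 1091 of 13272 genes were higher by that measure, and 0 of the 5 were higher or lower at 6 h in control cells. At 1 h in control cells Adam10 (0.58) and Timp3 (1.63) were higher, as were 1032 of all genes, and in the 1 h interaction the same genes were lower (-0.63 and -2.62), as were 676 of all genes. By genotype in untreated cells Timp3 was higher in Ado KO cells (1.64, where 538 of all genes were higher). Adam17 was higher in guide 2 than in guide 1 of each genotype, by 0.28 in Ado KO and 0.19 in control cells, where 601 and 1398 of all genes were higher. None of these passed the adjustment over all genes. Adam17 averaged 6.32 ± 0.10 log2 CPM at 6 h and 6.16 ± 0.24 untreated in Ado KO cells, and 6.39 ± 0.12 at 6 h and 6.24 ± 0.21 untreated in control cells.

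Of 11 other myeloid growth factors and chemokines 6 were in the table and 5 were tested. Ccl2, which draws monocytes out of the blood, was at 1 h higher by 1.55 in Ado KO (limma adjusted p = 0.0144) and by 2.25 in control cells (limma adjusted p = 4.43e-05). The Ado KO call at 1 h was lost without untreated library 1-2 or 2-2 and without TNF 1 h library 1-1, 2-1 or 2-2. At 6 h it rose by 4.02 in Ado KO (limma adjusted p = 2.61e-11) and by 4.00 in control cells (limma adjusted p = 1.44e-11). Ccl7, a related monocyte chemokine, rose at 6 h by 2.24 in Ado KO (limma adjusted p = 1.18e-05) and by 2.10 in control cells (limma adjusted p = 2.28e-05). Cx3cl1, the ligand of the receptor CX3CR1 of monocytes and microglia, rose at 6 h by 1.53 in Ado KO (limma adjusted p = 0.0349) and by 2.13 in control cells (limma adjusted p = 0.0011). Its level was low, at 1.698 ± 0.48 log2 CPM at 6 h and 0.16 ± 0.56 untreated in Ado KO cells, and at 1.03 ± 0.61 at 6 h and -1.10 ± 0.80 untreated in control cells. Mif and Spp1 were not called, and Csf2, which encodes GM-CSF, had group means between -3.35 and -1.95 log2 CPM and did not pass the filter.

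Of 21 signalling genes downstream of the receptor 20 were tested. Socs1, a feedback inhibitor of cytokine signalling, rose at 6 h by 0.62 in Ado KO (limma adjusted p = 6.28e-05) and by 0.43 in control cells (limma adjusted p = 0.00369). The adaptor Grb2 rose by 0.25 in Ado KO cells (limma adjusted p = 0.0155), with 0.05 in control cells. In control cells the kinase Mapk3 fell by 0.25 (limma adjusted p = 0.00874) and the phospholipase Plcg2 fell by 0.55 (limma adjusted p = 0.00136), with -0.09 and -0.35 in Ado KO cells. The interaction passed for none of these 4 genes, so their TNF differences are not shown to depend on genotype.

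By genotype, 1 of the 34 genes was called in untreated cells, where 0.249% of all genes were called, and 0 at 1 h and 6 h, where 1.06% and 1.02% were called. Plcg2 averaged 4.73 ± 0.18 log2 CPM in untreated Ado KO and 5.34 ± 0.19 in untreated control cells (SD, n = 4 each), a fall of 0.62 (limma adjusted p = 0.0236). That call was lost without Ado KO library 1-1 or 2-1 and without control library 1-1 or 1-2. Between the control guides, Ccl7 was higher in guide 2 by 1.05 (limma adjusted p = 0.00554).

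**Figure D5:**
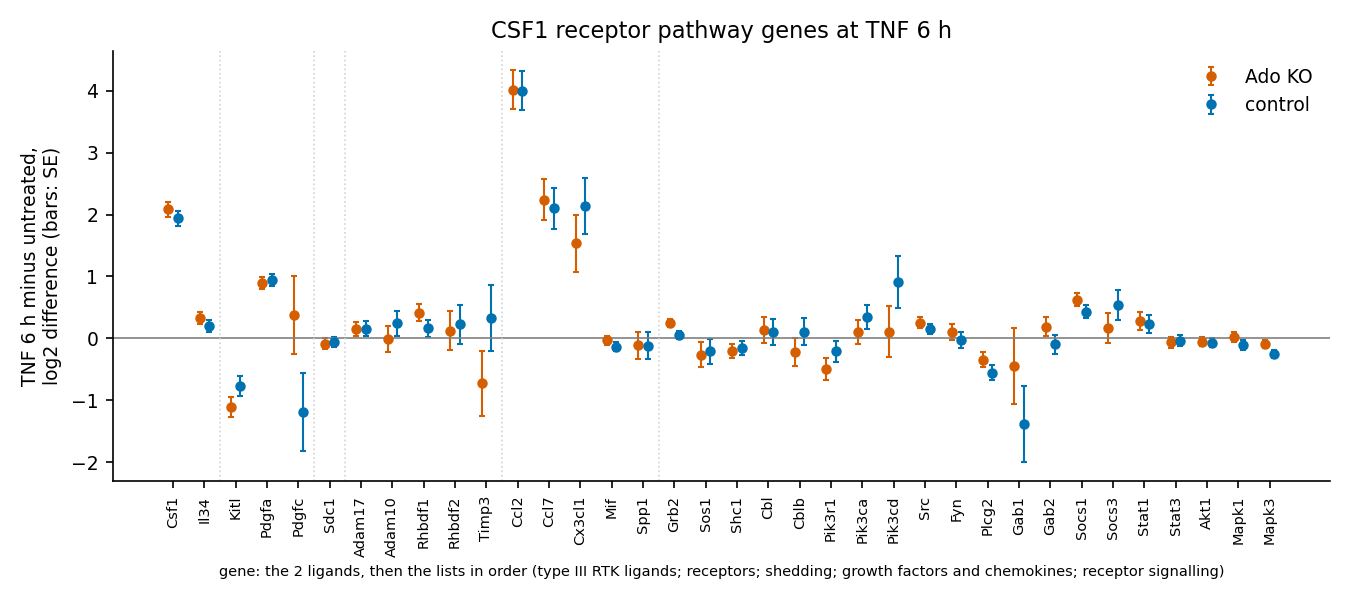
TNF 6 h minus untreated, in log2 units with SE, for Csf1, Il34 and the 34 tested genes of the 5 lists, with Ado KO in orange left of control in blue; dotted lines part the lists. Ccl2 at about 4 stands highest in both genotypes, followed by Ccl7, Csf1 and Cx3cl1 at 1.53 to 2.24, while Il34 lies at 0.33 and 0.20, and Kitl at -1.11 and -0.76.

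The genes most like each ligand were found by Pearson's r of log2 CPM over the 24 libraries, among 9559 named genes; libraries of a group share their treatment, so r is a description. For Csf1 the 5 highest were Vcam1 (r = 0.968), Relb (0.961), an NF-kB subunit, Ccl2 (0.957), the ubiquitin ligase gene Rnf19b (0.956) and Slfn2 (0.954). The lowest were Ier5l (-0.957), Chst1 (-0.931) and Ubtd1 (-0.919). Vcam1 averaged 7.23 ± 0.05 log2 CPM in Ado KO and 7.44 ± 0.03 in control cells at 6 h, and 4.76 ± 0.08 in Ado KO and 4.86 ± 0.14 in control cells without treatment.

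For Il34 the 5 highest were H2-Q7 (r = 0.935), a class Ib MHC gene, Tagln2 (0.86), the protease gene Htra1 (0.838), Cox6a2 (0.83), a cytochrome oxidase subunit, and Tes (0.795). The lowest were Eif1b (-0.877), Lpar1 (-0.85), a receptor for lysophosphatidic acid, and Hnrnpc (-0.832). H2-Q7 has near-identical relatives that could share its tags, so its values are uncertain. It averaged 7.15 ± 0.08 in Ado KO and 7.53 ± 0.09 log2 CPM in control cells without treatment, and 7.38 ± 0.09 in Ado KO and 7.68 ± 0.07 in control cells at 6 h (SD, n = 4 each). H2-Q7 kept the first place for Il34 over the 12 means of population and treatment (r = 0.979) and by Spearman's rho (0.948). Vcam1 held place 2 for Csf1 over the 12 means (r = 0.981) and place 9 by Spearman's rho (0.893).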

How the data were processed

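RNA of 24 libraries was sequenced with a QuantSeq 3′ mRNA kit, per the labels' protocols. The submitters' processing notes list HISAT2, cutadapt 1.7, FastQC, limma, Subread and featureCounts, with GRCm38 and mm10 as builds. The authors deposited normalised log2 CPM values. Unit and normalisation were inferred from the values: unlogged sums were 998899.6 to 999014.4, and all libraries shared the lowest (-3.349) and highest (17.04) value, as after quantile normalisation.

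Genes with log2 of at least 0 in at least 4 libraries were kept (13272). Limma 3.58.1 (R 4.3.3, statmod 1.5.0) fitted 6 group means with guide population as a random block (correlation 0.0485) and a variance trend, with two-sided tests and Benjamini-Hochberg adjustment over all genes kept at 0.05. Guides were compared on 12 means without a block. The fit was tested on simulated data. Members and lists were chosen with earlier results of these data known. Genes named are both ligands, list members called in a comparison given, receptors whatever their value, and, by Pearson's r, the 5 highest and 3 lowest per ligand with mean log2 of at least 1. The shedding genes, Pdgfc, Mif, Spp1, Csf2, the early TNF genes and the cell type markers fall outside this rule and were chosen after their values were seen. An exact permutation test planned for Csf1 minus Il34 is not reported. Replicate numbers do not pair libraries: deviations of same-numbered libraries correlated at -0.158 to 0.0543. For control guide 2 at 1 h, titles and column names give opposite numbers; columns were joined by the sample's description and numbers follow the titles. Alternatives were other filters, blocks, pseudocount (1), normalisation, and left-out libraries or populations. Figures used matplotlib 3.10.9 in Python 3.11.15.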

Additional observations from a re-analysis of the deposited data

Results flagged for a closer look

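In 18 groups of 4 libraries (Csf1, Il34 and their difference), the gap of the highest or lowest library to its nearest neighbour was divided by the range of the group, and 2 groups exceeded Dixon's critical value for 4 values at the 95% level; chance gives about 1 in 20 groups. Csf1 in Ado KO library 1-2 at TNF 1 h stood at 6.47 log2 CPM, with a gap of 0.842 of the range below the other 3 libraries. Il34 in untreated control library 2-2 stood at 6.14 log2 CPM, with a gap of 0.903 of the range above the other 3 libraries; without it the untreated genotype difference of Il34 remained past the threshold.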

How the results depend on the processing

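Of 759 alternative values, 682 stayed on their side of the threshold, within the spread or, for counts of list genes, at or near the main count. These include results that were not called in the main fit. The cause of the others among the 759 was not tested. For Il34, Ado KO minus control at 1 h was -0.4508 with only the groups compared (limma adjusted p = 0.213) and without a variance trend (0.0679), and at 6 h it was -0.4445 without a variance trend (0.0624). Without Ado guide 1 it was -0.4567 in untreated cells, -0.435 at 1 h and -0.3807 at 6 h (limma adjusted p = 0.204, 0.259 and 0.34). Without Ado guide 2 it was -0.696, -0.4666 and -0.5083 (0.053, 0.107 and 0.135) at the same times. Without control guide 2 it was -0.3009 at 1 h and -0.3368 at 6 h (0.1 and 0.12). With its own guide correlation, or with population means as the unit, both chosen after seeing the data, the values stayed at -0.5764, -0.4508 and -0.4445. With its own correlation, which was then used for all genes, no adjusted p passed. With population means the exact permutation p was 0.333, the smallest this design allows, so that alternative could not pass. Leaving out 1 library gave -0.6185 to -0.5275 in untreated cells (0 of 8 calls lost), -0.5451 to -0.3659 at 1 h (4 lost) and -0.4988 to -0.4028 at 6 h (6 lost). The Il34 difference between control guides was 0.1553 to 0.2545, past the threshold without control TNF 1 h library 1-1. No genotype or interaction difference of Csf1 passed under any alternative run.

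Some values that were not called or not tested changed sign. Csf1 by genotype in untreated cells was -0.02746 without Ado guide 1 and -0.08934 without control guide 1, and -0.004836 to 0.1575 with 1 library left out; at 1 h it was -0.2641 to 0.001781 with 1 library left out. Its 1 h interaction was 0.00187 without Ado guide 1, and its difference between Ado guides was -0.1016 to 0.1571 with 1 library left out. Il34 at TNF 1 h in control cells was -0.05396 without control guide 2 and -0.03873 to 0.1405 with 1 library left out. Csf1 at TNF 1 h in control cells kept its sign but moved in size, to 0.5318 without control guide 1 and 1.034 without control guide 2. With the replicate block, which the labels do not support as a pairing, Il34 by genotype was -0.5764, -0.4508 and -0.4445 (limma adjusted p = 0.00857, 0.0275 and 0.0286), and it changed no call of either ligand.

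Of the 34 list genes, those called at TNF 1 h in Ado KO cells numbered 0 with only the groups compared, without a variance trend and without Ado guide 2, and 0 to 1 with 1 library left out. In control cells at 1 h they numbered 2 with guide populations as fixed terms and with protein-coding genes normalised again, 0 without control guide 1, and 1 to 3 with 1 library left out. At 6 h in control cells 5 were called without control guide 1. By genotype in untreated cells 2 were called with fixed terms, with protein-coding genes normalised again and without control guide 2, 0 with only the groups compared, without a variance trend and without Ado guide 1, Ado guide 2 or control guide 1, and 0 to 1 with 1 library left out. By genotype at 1 h 3 were called with fixed terms, 1 without Ado guide 2, 2 without control guide 2 and 0 to 2 with 1 library left out; at 6 h 1 was called with fixed terms and without control guide 2, and 0 to 1 with 1 library left out. Between Ado guides 0 to 1, and between control guides 0 without a variance trend and 1 to 3 with 1 library left out, were called. Over all genes, genotype calls in untreated cells numbered 33, against 132 with fixed terms, 6 without a variance trend and 3 without Ado guide 2; at 1 h 141, against 609 with fixed terms and 3 with only the groups compared; at 6 h 135, against 324 with fixed terms. At the estimated depth, counting error for Il34 was up to 0.1 on the log2 scale.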
